A study of Mus musculus with 64 samples.

Results

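The 35 genes described here encode components and regulators of the dermis and of related connective tissue: collagens and other matrix proteins, growth factor receptors, and transcription factors of fibroblasts, cartilage and muscle, together with some transcription factors that many tissues use. Transposon insertions were assigned to them by the gene column of the deposited insertion table, with each motif position of a sample counted as 1 insertion. Of 299612 insertions on the autosomes other than the donor chromosome, 1016 lay in these genes, and 33 of the 35 genes held at least 1. The insertions came from 64 samples whose names each carry a different animal code: 30 PiggyBac (PB) tumours, 12 PB tails, 11 Sleeping Beauty (SB) tumours and 11 SB tails. In these mice a transposase knocked into Rosa26, and so active in all tissues, moved copies of an ITP transposon array out of a donor locus. The SB mice came from crosses of Rosa26 SB/+;Blm m3/m3 animals with Blm m3/m3 animals of the transposon lines ITP1-C and ITP2-M, so that the SB tails and the SB tumours shared an impaired Blm helicase. The PB mice belonged to an earlier ITP cohort, labelled IMPB, whose alleles are not spelled out in the sources used here. All mice had a mixed C57BL/6 × 129Sv × FVB background, tails and tumours of a system shared its transposase, and ages were not given. The tumours were diffuse large B cell lymphomas (DLBCLs) from spleen, lymph nodes or other organs, and tail DNA served as the control tissue. Tail against tumour is therefore also a comparison of whole tissues, and more cells of a type in a sample and more insertions per cell of that type cannot be told apart.

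The fibroblasts of the dermis secrete fibrillar collagens, which assemble into cable-like fibres, and smaller proteins such as decorin and lumican, which bind the fibres and set their spacing. Fibroblasts, cartilage and muscle share an origin in the mesenchyme of the embryo, where factors of the Twist, Prrx, Tbx and Sox families direct their development. Transposons insert throughout the genome, PB at TTAA and SB at TA, and PB prefers open and transcribed chromatin more than SB does, so a gene's insertions depend on its length, its motifs and its state in the cells where the transposon moved.

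Some TTAA motifs of member genes were hit in more than 1 sample, and those hit in several PB tails and in no PB tumour, in 5 of the genes with most insertions or called below, are shown as examples of a target site. The sites below are read on the forward strand of GRCm38 with 10 bases on each side and the motif in capitals.
Nfib, chr4:82312067-82312090: cattggttttTTAActtctctgag
Nfib, chr4:82409842-82409865: ttacttttgtTTAAagtcttttac
Col5a2, chr1:45401752-45401775: taatgtttggTTAAatacaaccat
Sox6, chr7:115911857-115911880: aatttacatcTTAAtgcagcaatc
Sox6, chr7:115980575-115980598: aaattttcatTTAAtattgatgcc
Bnc2, chr4:84541560-84541583: ttaatcctttTTAAgtaagctgtg
Zeb2, chr2:45072099-45072122: atttcttttaTTAAaaagaattag
Each of the first 6 sites was hit in 2 PB tails, and the Zeb2 site in 3 PB tails. They were picked for having 0 PB tumours, and repeat hits were not particular to tails: 6 other Zeb2 motifs were each hit in 2 PB tumours and 0 PB tails, and 3 Bnc2 motifs and 1 Nfib motif in 1 tail and 1 tumour each. The second Sox6 site lay in an untranslated exon and the other sites lay in introns. At the second Nfib site, the Col5a2 site and the second Sox6 site both transposons pointed the same way. The lower read count of each pair was 2, the lowest in the data, and the higher was 134, 80 and 2, in that order. Whether such pairs are separate insertions was not tested. At the first Nfib site, the first Sox6 site and the Bnc2 site the transposons of the pair of samples pointed in opposite directions. At the Zeb2 site 2 pointed one way and 1 the other. In SB, 1 TA motif of Col5a2 was hit in 1 tail and 1 tumour, again in an intron and in opposite directions.
Col5a2 in SB, chr1:45476437-45476458: gaaatacagcTAaatgcctttc
Among the 715 PB positions in member genes, the third base before the motif was T in 46.4%, against 33.5% of the 34820 TTAA motifs in the member gene bodies. Among the 262 SB positions, the third base before the motif was A in 74.8%, against 33.5% of the 341305 TA motifs there. In the sites above this base is the third lower-case letter to the left of the capitals.

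Samples carried 757 to 10800 insertions in PB tumours, 2034 to 7361 in PB tails, 760 to 8786 in SB tumours and 2537 to 7148 in SB tails. These insertions were read from 55502 to 369482 reads per sample in every group but the PB tumours, where the reads ran from 60545 to 5721832, the highest value being a tumour of the spleen. A sample held 11 to 40 member insertions among the PB tails, 2 to 33 among the PB tumours, 9 to 20 among the SB tails and 2 to 28 among the SB tumours, so the share of a single sample is known only roughly. For the PB tail with the lowest share, 11 of 2625 insertions, the 95% Clopper-Pearson interval ran from 0.209 to 0.749%. Reads from PCR without molecular identifiers are not independent molecules, and this interval covers counting error only.

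In PB, the member genes took a larger share of the insertions in tails than in tumours. The share was lowest at 0.419%, had a median of 0.560% and was highest at 0.688% in the 12 tails. In the 30 tumours it was lowest at 0.0595%, had a median of 0.324% and was highest at 0.581%. All 12 tails lay above the median tumour and 4 of them above every tumour, while 23 of the 30 tumours lay below the lowest tail. The means were 0.554% ± 0.0692 (SD, n = 12) and 0.337% ± 0.133 (SD, n = 30), a difference of 0.217 percentage points or 1.64-fold. No p is given for this sum, since the members were chosen with earlier results of these data known. Sample names were written in a joined or a separated form, and within each form the direction was the same: 0.541% against 0.335% among joined names and 0.563% against 0.341% among separated names. A larger part of the insertions in tumours fell in genes of any kind, 57.8% against 53.8% in PB tails, and as a share of those genic insertions the members took 1.03% ± 0.135 in PB tails (SD, n = 12) and 0.582% ± 0.227 in PB tumours (SD, n = 30).

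**Figure D1:**
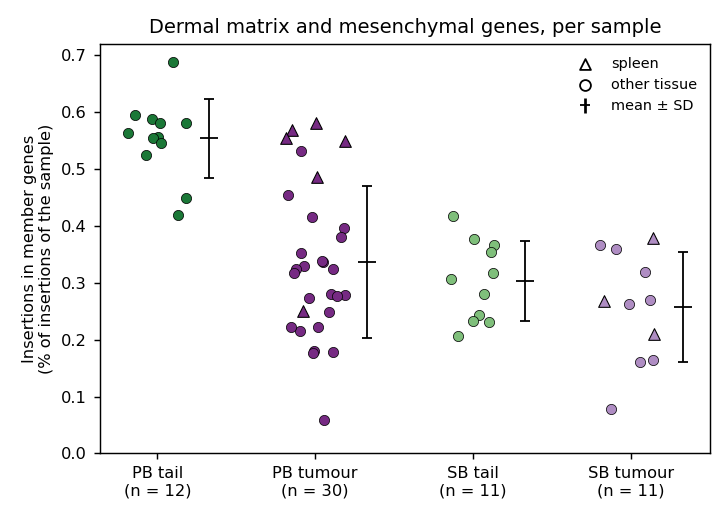
Each point is a sample, and the vertical axis is the percent of its insertions that lay in the 35 member genes, triangles are spleen tumours, and bars give the mean and SD of each group. The PB tails sit between 0.419 and 0.688%, above most PB tumours, and 5 of the 7 PB tumours at or above the lowest PB tail are spleens, while the SB groups overlap.

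The tumours that reached the range of the tails were mostly spleens. Of the 7 PB tumours at or above the lowest tail, 5 came from the spleen and the other two carried the label MES LN. The 6 PB spleen tumours had a share of 0.498% ± 0.126 (SD, n = 6, range 0.25 to 0.581%), against 0.305% ± 0.0682 in MES MASS (SD, n = 9), 0.329% ± 0.149 in MES LN (SD, n = 6) and 0.266% ± 0.0981 in the tumours of the other sites (SD, n = 9). The lowest of the 6 spleens was the library with 5721832 reads. The excess of the spleens was largest in transcription factors. Sox5 and Sox6 together had 14.98 ± 6.996 insertions per 10,000 in spleens and 5.89 ± 3.96 in the other 24 tumours (SD). The transcription factors of many tissues had 24.55 ± 11.86 and 13.01 ± 6.12 (SD). Matrix genes were not raised in spleens. Fibrillar collagens had 1.18 ± 1.89 and 1.59 ± 1.61, and the other matrix genes 1.79 ± 2.64 and 3.88 ± 5.92 (SD). None of these differences between tumour sites was tested. Counted per 10,000 insertions, the 24 PB tumours outside the spleen held 29.6 ± 10.2 member insertions (SD, n = 24), and without the spleens the difference between tails and tumours widened to 0.257 percentage points.

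In SB, the shares of tails and tumours overlapped. The 11 tails ran from 0.206 to 0.417% with a median of 0.306%, and the 11 tumours from 0.0782 to 0.379% with a median of 0.269%. Of the 11 tumours, 8 lay at or above the lowest tail, and 7 of the 11 tails lay above the median tumour. The means were 0.303% ± 0.0699 (SD, n = 11) and 0.258% ± 0.0967 (SD, n = 11), and their difference of 0.0450 percentage points was smaller than the SD within either group. It fell to 0.0270 percentage points without the tumour labelled SI MASS, and within joined names, the only form that SB tumours had, it was 0.0226. With only insertions of at least 10 reads it was -0.00069, and with the donor and sex chromosomes kept in the total it turned to -0.0154 percentage points. The donor chromosome held 40.2% ± 3.48 of the insertions of SB tails (SD, n = 11) and 23.6% ± 3.55 of those of SB tumours (SD, n = 11), and no member lies on it.

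Relative to the TTAA or TA motifs of their gene bodies and to the insertions on their chromosomes, the members held 2.04 times the expected insertions in PB tails, 1.19 times in PB tumours, 1.28 times in SB tails and 1.11 times in SB tumours. This expectation spread the insertions of a chromosome evenly over all its motifs, inside and outside genes. It was not computed for all genes, so the ratios here and below do not compare the members with other genes. A few long genes carried most of the member insertions. Sox5 (144 over all samples), Sox6 (101), Nfia (92), Nfib (86), Zeb2 (85), Bnc2 (82) and Zeb1 (72) together held 65.2% of the member insertions in PB tails, 69.0% in PB tumours, 57.0% in SB tails and 59.5% in SB tumours. All 7 of them are transcription factors, and the collagens and the other matrix genes that give the dermis its substance held fewer.

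By role, the ratio of PB tails to tumours was highest for the fibrillar collagens and the mesenchymal factors. Fibrillar collagens took 0.0412% ± 0.0362 of the insertions in PB tails (SD, n = 12) and 0.0151% ± 0.0164 in PB tumours (SD, n = 30), a ratio of 2.72. For the mesenchymal transcription factors the values were 0.0783% ± 0.0307 and 0.0320% ± 0.0227, a ratio of 2.45, and for the other matrix genes and matrix enzymes 0.0657% ± 0.0347 and 0.0346% ± 0.0545, a ratio of 1.90. The first 2 ratios rested largely on 1 gene each. Col5a2 held 12 of the 20 fibrillar collagen insertions in PB tails and 4 of 24 in PB tumours. Bnc2 held 29 of the 37 insertions of the mesenchymal factors in PB tails and 31 of 47 in PB tumours. The ratio was 1.71 for the cartilage factors Sox5 and Sox6, 1.75 for the growth factor receptors, 1.33 for the transcription factors of many tissues and 1.23 for the muscle genes. In percentage points the order was another one, since the cartilage factors, with 0.132% and 0.0771%, and the transcription factors of many tissues, with 0.204% and 0.153%, took larger shares. In SB, the fibrillar collagens had 0.0356% ± 0.0383 in tails (SD, n = 11) and 0.0432% ± 0.0454 in tumours (SD, n = 11), a ratio of 0.824. The SB ratio was 3.44 for the muscle genes, from means of 0.0220% and 0.00641%, 1.57 for the cartilage factors, 1.05 for the other matrix genes, 0.907 for the transcription factors of many tissues and 0.335 for the growth factor receptors, and the mesenchymal factors had 0.0425% ± 0.0253 in SB tails and 0.0283% ± 0.0303 in SB tumours (SD, n = 11 each). Every role overlapped between the groups of a system.

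**Figure D2:**
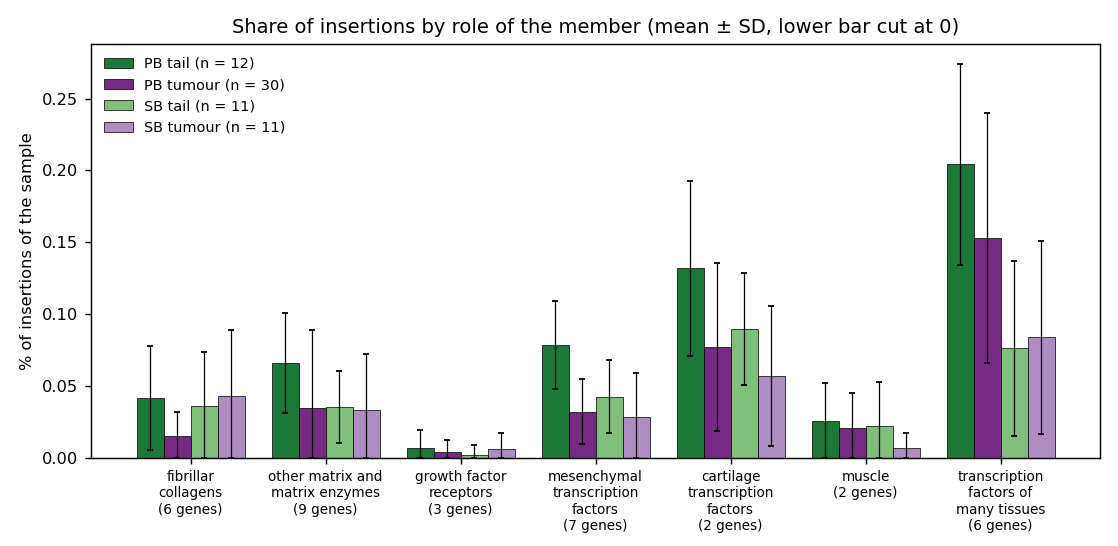
Bars give the mean percent of a sample's insertions in the members of each role and error bars the SD, cut at 0, for the 4 groups. In PB the tails are above the tumours in each role, most clearly for the mesenchymal transcription factors at 0.0783 against 0.0320%. Bnc2 alone holds 29 of the 37 insertions of that role in PB tails.

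Gene by gene, edgeR's quasi-likelihood test compared the insertions per sample of tails and tumours over all genes with at least 10 insertions in a system, each sample being scaled by its insertion total. In PB, 17 of the 35 members passed this minimum, and 4 of them (Nfib, Col5a2, Sox6 and Bnc2) had more insertions in tails at an adjusted p below 0.05, while 0 had fewer. Of all 3305 genes tested, 2.3% (76) had more insertions in tails and 2.15% (71) had fewer, 4.45% in either direction. With TMM scaling, which moved the median log2 ratio of all genes from -0.29 to -0.56, 45 genes had more and 126 had fewer, and the member calls became Nfib and Col5a2 with more and Zeb1 with fewer. The median log2 ratio of tails over tumours was 0.69 over the 17 members tested and -0.29 over all genes tested. A ratio above 0 was found for 14 of the 17 (82.4%), against 40.4% of all genes tested. At an unadjusted p below 0.05 there were 5 members, against 19.7% of all genes tested. A member with few insertions could pass the minimum only through the group where it was frequent, so these counts describe the tested members and not all 35.

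**Figure D3:**
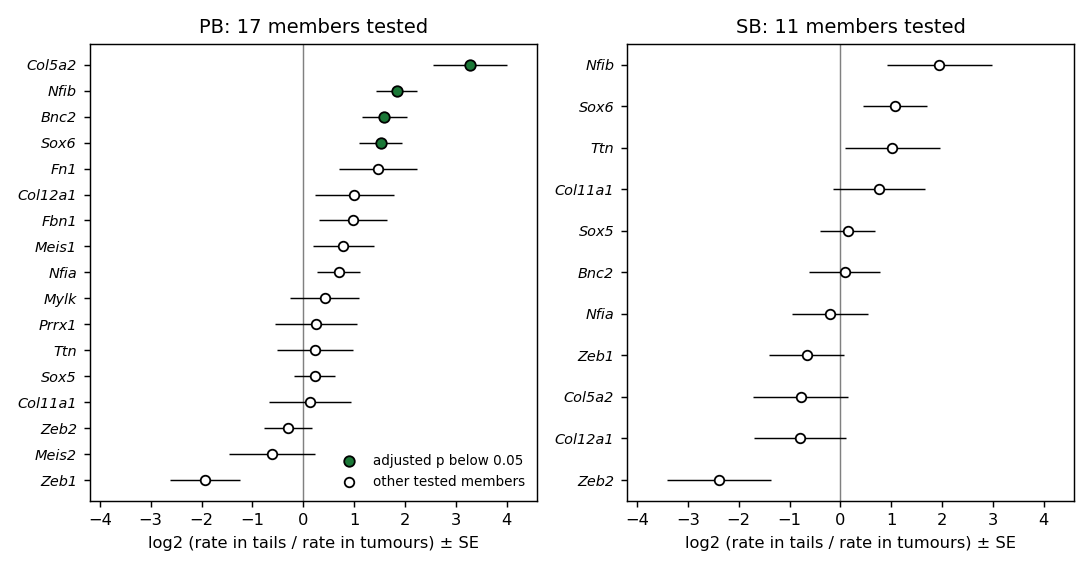
Points give the log2 ratio of the insertion rate in tails over tumours, for the 17 members tested in PB (left) and the 11 in SB (right). Bars give the SE, derived from the F statistic of edgeR. Filled points have an adjusted p below 0.05. In PB, Col5a2, Nfib, Bnc2 and Sox6 are filled and lie between 1.52 and 3.28, and in SB no point is filled.

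Nfib encodes a nuclear factor I protein, a transcription factor of hair follicle stem cells, lung and brain. Its gene spans chromosome 4 from 82290173 to 82506751 on the reverse strand. The PB tails held 39 Nfib insertions in 11 of 12 samples, at a rate per 10,000 insertions that was lowest at 0, had a median of 9.29 and was highest at 16.5. The PB tumours held 36 in 18 of 30 samples, with a lowest rate of 0, a median of 1.66 and a highest of 12.4. The ranges overlapped, yet 11 tails lay above the median tumour and only 1 tumour lay above the median tail. The log2 ratio was 1.83 ± 0.40 (SE, edgeR adjusted p = 0.00071), from mean rates of 8.47 ± 4.69 (SD, n = 12) and 2.19 ± 2.74 (SD, n = 30). The highest tumour, labelled MES MASS, carried 7 of the 36 tumour insertions. In SB the same gene had 9 insertions in 7 of 11 tails and 2 in 2 of 11 tumours, a log2 ratio of 1.94 ± 1.03 (SE, edgeR adjusted p = 0.58). Of the 39 insertions in PB tails 9 lay before the RefSeq start of the gene, as far as 116 kb away, and of those in PB tumours 5 did. Counted in RefSeq gene bodies instead, Nfib had a log2 ratio of 1.67 and an adjusted p of 0.00865 (edgeR).

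Col5a2, on chromosome 1 from 45374331 to 45503282, encodes a chain of type V collagen, which sits inside type I fibres and controls their thickness. It had 12 insertions in 7 of 12 PB tails and 4 in 4 of 30 PB tumours. The rate per 10,000 insertions ran from 0 to 5.95 in tails, with a median of 2.44, and from 0 to 3.24 in tumours, with a median of 0. Col5a2 was thus absent from 26 tumours, and 4 tails lay above the highest tumour. The log2 ratio was 3.28 ± 0.73 (SE, edgeR adjusted p = 0.0013), the largest among the tested members in PB. Col5a2 had no adjusted p in PB with DESeq2, with only insertions of at least 10 reads or with a minimum of 30 insertions. Fisher's exact test of presence did not call Col5a2 (adjusted p = 0.25). Its number in tails was 2.93 times the expected, against 0.290 times in tumours. In SB the order was not the same: 4 insertions in 4 tails and 6 in 5 tumours gave a log2 ratio of -0.78 ± 0.93 (SE, edgeR adjusted p = 0.86).

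The other fibrillar collagens gave no call. Col11a1, a chain of the cartilage collagen XI, had 4 insertions in 2 PB tails and 12 in 9 PB tumours (log2 ratio 0.14 ± 0.80 SE, edgeR adjusted p = 0.95), and 3 of the 4 came from a single tail. Leaving out single samples moved its log2 ratio from -1.74 to 0.37. The chains of collagens I and III, the bulk of dermal collagen, are encoded by short genes and were hardly hit, and Col1a2 had 0 insertions in PB tails and 4 in PB tumours, Col3a1 1 and 2, and Col5a1, the partner chain of Col5a2, 3 and 2. Col1a1 had 0 of 299612 insertions in any group, which allows a rate of up to 0.100 per 10,000, where its motifs gave an expectation of 1.06 insertions.

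Sox6 (chromosome 7, 115470872 to 116040776) and Sox5 (chromosome 6, 143828425 to 144782287) encode related SoxD factors that act together in cartilage formation. Sox6 had 33 insertions in 10 of 12 PB tails and 38 in 22 of 30 PB tumours. Its rate per 10,000 ran from 0 to 18.6 in tails with a median of 5.86, and from 0 to 9.72 in tumours with a median of 2.16. The groups overlapped, but 5 tails lay above the highest tumour. The log2 ratio was 1.52 ± 0.42 (SE, edgeR adjusted p = 0.012), and it no longer passed with the name form as a block (adjusted p = 0.074), TMM scaling (0.065), DESeq2 (0.054) or no minimum (0.083). Sox6 also had an insertion in every SB tail, 21 in 11 of 11, against 9 in 4 of 11 SB tumours. The SB log2 ratio was 1.06 ± 0.63 (SE, edgeR adjusted p = 0.59).

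Sox5, the longest of the 35 genes, gave no call in either system. It had 27 insertions in 10 of 12 PB tails, at a rate of 0 to 11.8 per 10,000 with a median of 4.88, and 74 in 25 of 30 PB tumours, at 0 to 18.5 with a median of 4.53 (log2 ratio 0.22 ± 0.40 SE, edgeR adjusted p = 0.83). In PB tumours 54 of 74 insertions lay nearer to the start than to the end of the gene and 46 of 74 had its orientation, against 9 of 27 and 9 of 27 in PB tails. This was noticed after the values were seen and was not tested. Sox5 was also one of the genes through which PB spleen tumours approached the tails, with a rate of 10.2 ± 5.69 per 10,000 in the 6 spleens (SD, n = 6) and 3.95 ± 2.96 in the other 24 tumours (SD, n = 24).

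**Figure D4:**
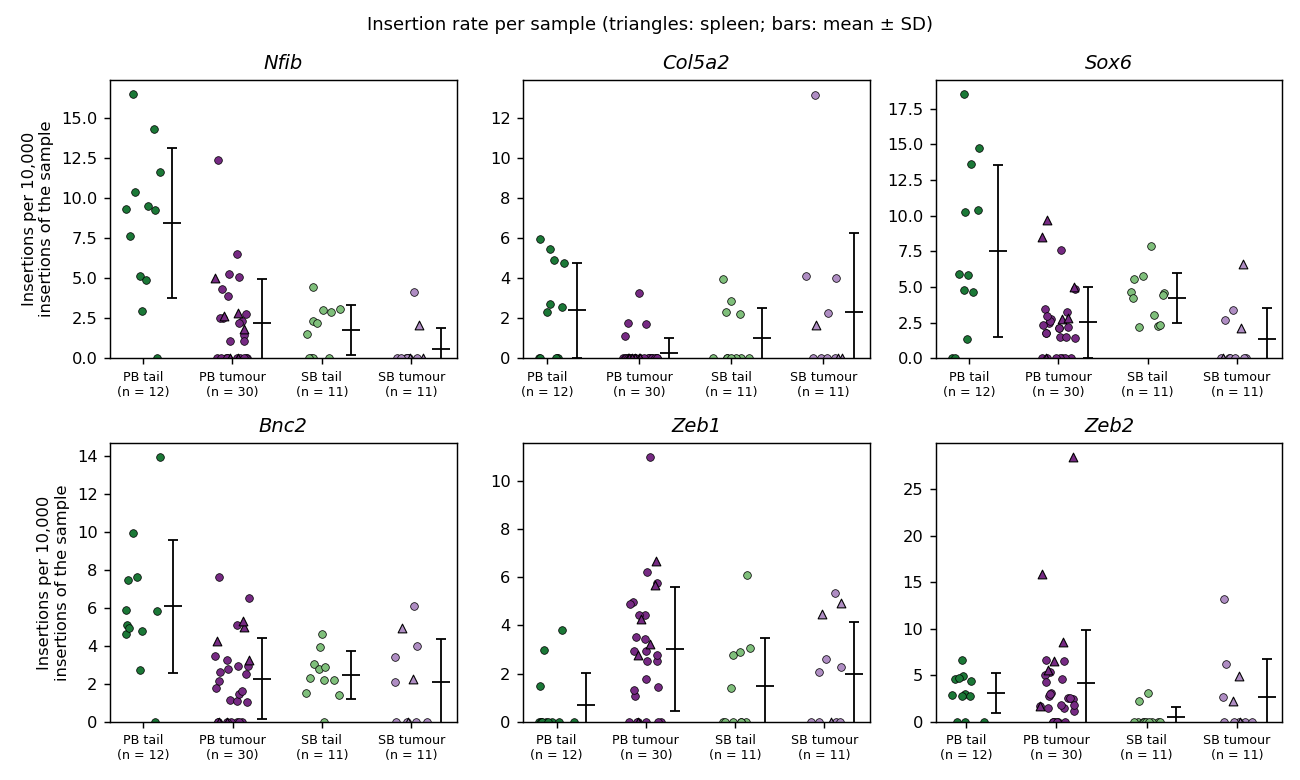
Each point is a sample and the vertical axis is its number of insertions in the named gene per 10,000 of its insertions, triangles are spleen tumours and bars give the mean and SD, ending at the axis. Nfib, Sox6 and Bnc2 are higher in most PB tails than in most PB tumours, Col5a2 is at 0 in 26 of 30 PB tumours, Zeb1 is at 0 in 9 of 12 PB tails, and the highest Zeb2 rates are PB spleens.

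Bnc2 (chromosome 4, 84266804 to 84676029) encodes basonuclin 2, a zinc finger protein of connective tissue and of the mesenchyme of skin. It had 29 insertions in 11 of 12 PB tails and 31 in 21 of 30 PB tumours. The rate per 10,000 ran from 0 to 13.95 in tails with a median of 5.47, and from 0 to 7.60 in tumours with a median of 1.94. Here 11 tails lay above the median tumour and 2 tumours above the median tail. The log2 ratio was 1.59 ± 0.44 (SE, edgeR adjusted p = 0.014). It did not pass without the tail that held 6 of the 29 insertions (0.066), with the name form as a block (0.053), with TMM scaling (0.060), with only insertions of at least 10 reads (0.13) or with no minimum (0.098). In SB, 12 insertions in 10 tails and 10 in 6 tumours gave a log2 ratio of 0.08 ± 0.69 (SE, edgeR adjusted p = 0.98).

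The remaining mesenchymal factors had few insertions. Prrx1, a homeobox gene of limb mesenchyme, had 4 insertions in PB tails and 11 in PB tumours (log2 ratio 0.25 ± 0.80 SE, edgeR adjusted p = 0.90). Tbx15, a T-box factor that patterns the dermis of the back, had 3 and 1 in PB and 6 and 2 in SB, so 9 of its 12 insertions were in tails, with fewer than the minimum of 10 in either system. Twist2 had 1 and 1 in PB and 1 and 0 in SB, Tbx18 had 0 and 2, then 1 and 0, and Meox1 had a single insertion, in a PB tumour. Twist1, a regulator of mesenchyme with the shortest gene body of the list, had none in any group, where its motifs gave an expectation of 0.142 insertions.

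Among the transcription factors of many tissues, Zeb1, Zeb2 and Meis2 had log2 ratios below 0, and none of them passed the test. Zeb1 and Zeb2 encode zinc finger repressors that drive the change of epithelial cells into mesenchymal ones, and lymphocytes use them as well. Zeb1 had 4 insertions in 3 of 12 PB tails, at 0 to 3.81 per 10,000 with a median of 0, and 49 in 23 of 30 PB tumours, at 0 to 11.0 with a median of 2.86. Most tails lacked it while most tumours carried it, and 23 tumours lay above the median tail. The log2 ratio was -1.93 ± 0.68 (SE, edgeR adjusted p = 0.075), just outside the threshold, and Bnc2 was the called member nearest to it on the other side. Zeb1 passed with TMM scaling (0.039), DESeq2 (0.024), at least 10 reads (0.027), a minimum of 30 insertions (0.040) and without the tail that held 2 of its 4 tail insertions (0.040). It did not pass with no minimum (0.33), the name form as a block (0.13) or Fisher's exact test of presence (0.21). Nor did it pass without spleen tumours (0.085), without positions found in several samples (0.075) or in RefSeq gene bodies (0.076). In tumours it held 3.64 times the expected insertions, and 5 of the 30 PB tumours shared 1 TTAA motif in an intron of Zeb1.

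Zeb2 (chromosome 2, 44983512 to 45117442) had 15 insertions in 9 of 12 PB tails, at 0 to 6.61 per 10,000 with a median of 2.95, and 59 in 24 of 30 PB tumours, at 0 to 28.4 with a median of 2.56. The medians were close and the tumours spread much further, and the log2 ratio was -0.30 ± 0.47 (SE, edgeR adjusted p = 0.82). The highest tumour rates were those of spleens. The 6 PB spleen tumours held 27 Zeb2 insertions at a rate of 11.1 ± 9.71 (SD, n = 6), with 10 in a single spleen, and the other 24 tumours held 32 at 2.42 ± 2.07 (SD, n = 24). The difference was not tested. In that spleen 2 Zeb2 insertions were among its most covered, at rank 13 with 934 reads and at rank 25 with 706 reads. Zeb2 stood above its expectation in PB tails (4.11 times) and in PB tumours (5.10 times). In SB it had 2 insertions in tails and 9 in 5 tumours (log2 ratio -2.39 ± 1.02 SE, edgeR p = 0.019, adjusted p = 0.38).

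The other factors of this role gave no call. Nfia, a relative of Nfib, had 25 insertions in 8 of 12 PB tails and 49 in 21 of 30 PB tumours (log2 ratio 0.69 ± 0.43 SE, edgeR adjusted p = 0.39). A further 14 insertions of PB tails and 19 of PB tumours lay in the RefSeq body of Nfia but were given to E130114P18Rik in the table and were not counted. Meis1, a homeobox partner of Hox proteins, had 10 in 8 tails and 19 in 15 tumours (0.79 ± 0.60 SE, edgeR adjusted p = 0.53), and its relative Meis2 had 3 in 3 tails and 15 in 11 tumours (-0.62 ± 0.85 SE, edgeR adjusted p = 0.76).

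The matrix genes other than fibrillar collagens had 36 insertions in PB tails and 40 in PB tumours, and only 3 of these 9 genes passed the minimum. Fn1, which encodes fibronectin, had 6 insertions in 5 tails and 7 in 7 tumours (log2 ratio 1.47 ± 0.76 SE, edgeR adjusted p = 0.32). Fbn1, which encodes the microfibril protein fibrillin 1, had 8 in 6 tails and 13 in 10 tumours (0.98 ± 0.67 SE, edgeR adjusted p = 0.47), and Col12a1, a collagen on the surface of fibres, had 5 in 3 tails and 8 in 8 tumours (1.003 ± 0.78 SE, edgeR adjusted p = 0.56). All 3 ratios were above 0 and none passed. The short genes Lum (lumican), Sparc (osteonectin) and Dcn (decorin), whose products bind collagen, were hit in PB tails beyond their motif content. Lum had 4 insertions in 4 PB tails against 0.267 expected, Sparc 4 in 3 tails against 0.354, and Dcn 5 in 5 tails against 1.13. In PB tumours Lum and Sparc, with 3 insertions each, were also above the expected 0.855 and 1.40, while Dcn had 2 against 3.62. In SB tails Lum had 0 and Dcn 1 against 1.07. Postn (periostin) had 2 and 3, and Col6a3 2 and 1. Lox, the enzyme that crosslinks collagen, had 0 in both PB groups and 2 in SB tails.

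The receptors and the muscle genes held few insertions. Pdgfra, the receptor that marks fibroblasts, had 0 in PB and 2 in SB tumours, and Pdgfrb had 2 in PB tumours and 1 in SB tumours, so the 5 insertions of both receptors were all in tumours. Few were to be expected in tails, where the motifs gave 0.748 for Pdgfra and 0.331 for Pdgfrb in PB. In SB tails the expectations were 0.810 and 0.607. Fgfr1 had 3 in PB tails and 4 in PB tumours. Mylk, the kinase of smooth muscle myosin, had 7 in 4 PB tails and 17 in 12 PB tumours (log2 ratio 0.42 ± 0.67 SE, edgeR adjusted p = 0.82). Ttn, which encodes the sarcomere protein titin, had 5 in 5 tails and 14 in 11 tumours (0.22 ± 0.75 SE, edgeR adjusted p = 0.90). A single Ttn insertion in a coding exon carried 80046 reads, 1.40% of the reads of the deeply sequenced spleen tumour. The 18 members under the minimum in PB held 28 insertions in tails, 2.002 times the expected, and 31 in tumours, 0.706 times. Being under the minimum capped these counts in advance, and more so in tumours, with 156888 insertions in all against 48122 in tails. The ratios of these 18 genes are therefore not a result about tails against tumours.

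In SB, 11 of the 35 members passed the minimum, and 0 were called in either direction by edgeR, against 0.178% of the 1124 genes tested with more insertions in tails and 0.623% with fewer. DESeq2 and Fisher's exact test of presence also called 0. Only Zeb2 had an unadjusted p below 0.05 in edgeR, against 8.99% of all genes tested. The median log2 ratio of the 11 was 0.08, against -0.01 for all genes tested. Of the 11, 6 (54.5%) were above 0, close to the 49.2% of all genes tested. Besides the genes given above, Nfia (9 insertions in tails and 9 in tumours), Sox5 (24 and 19), Zeb1 (8 and 11), Col11a1 (8 and 4), Col12a1 (4 and 6) and Ttn (7 and 3) had adjusted p values between 0.79 and 0.94. The 24 members under the minimum held 41 insertions in SB tails and 28 in SB tumours, 1.22 and 0.963 times the expected. These counts, too, were capped in advance by the minimum.

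Whether the difference between tails and tumours differed between the systems was tested as an interaction in edgeR over 4291 genes. For the members 0 of 19 tested were called, against 0% of all genes, and 2 had an unadjusted p below 0.05, against 9.14% of all genes. They were Col5a2, with a difference of the SB minus the PB log2 ratio of -4.07 ± 1.17 (SE, edgeR p = 0.00074, adjusted p = 0.25), and Dcn, with -4.24 ± 1.67 (SE, edgeR p = 0.040, adjusted p = 0.52). For Nfib the difference was 0.11 ± 1.26, for Sox6 -0.46 ± 0.78 and for Bnc2 -1.51 ± 0.82 (SE), and errors of this size do not show that the systems act alike.

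Most member insertions lay in introns: 89.4% in PB tails, 94.9% in PB tumours, 98.0% in SB tails and 92.2% in SB tumours. Coding exons held 3, 5, 0 and 1. The transposon had the orientation of the gene in 44.3% of the insertions in PB tails (95% Clopper-Pearson interval 38.2 to 50.5%), 49.1% in PB tumours (44.6 to 53.6%), 43.6% in SB tails (35.5 to 52.0%) and 42.2% in SB tumours (33.1 to 51.8%), and each interval held an even split. Along the gene body the insertions were spread along the whole body, with 20.5 to 29.5% in each of 4 equal parts in PB tails and 21.8 to 29.3% in PB tumours.

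**Figure D5:**
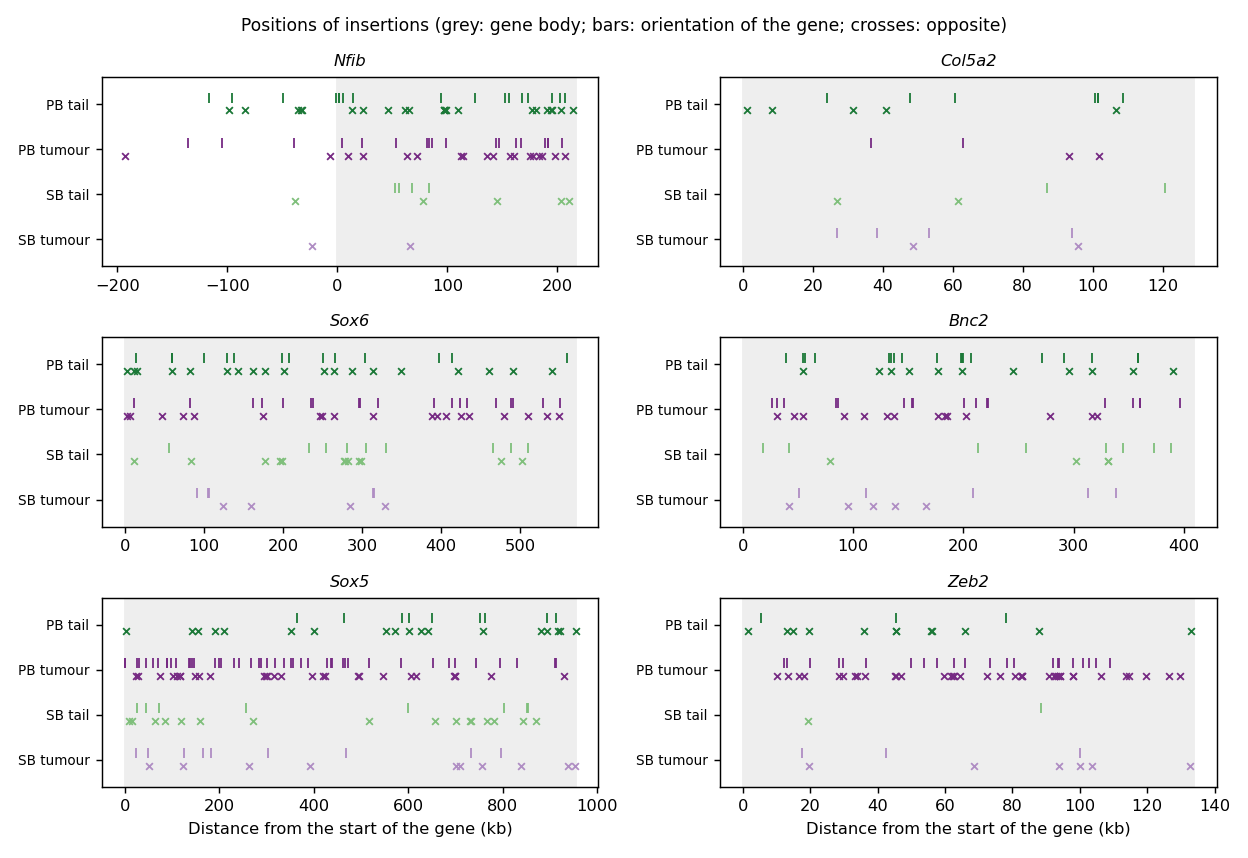
Each mark is an insertion, placed by its distance in kb from the RefSeq start of the gene (grey, gene body), with bars for insertions in the orientation of the gene, crosses for the opposite one, and the 4 groups as rows. The insertions of Nfib, Sox6 and Bnc2 are spread along the genes without a single cluster, 9 Nfib insertions of PB tails lie before the start, and 54 of 74 Sox5 insertions of PB tumours lie nearer to the start than to the end.

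Member insertions were covered about as deeply as other insertions. Their median number of reads was 23 in PB tails, 7 in PB tumours, 22 in SB tails and 14.5 in SB tumours, against 21, 6, 19 and 13 for all insertions. Among the 10 most covered insertions of each sample, ties included, the members took 1 of 122 in PB tails (Col11a1, rank 9), 0 of 302 in PB tumours, 0 of 110 in SB tails and 0 of 110 in SB tumours. A list of 15 B lymphocyte genes took 0, 9, 0 and 4 of these. With only insertions of at least 10 reads the member share in PB was 0.560% in tails and 0.340% in tumours, and counted by reads it was 0.544% and 0.347%. Positions hit in more than 1 sample held 10.2% of the member insertions in PB tails and 8.42% in PB tumours, against 8.68% and 8.98% of all insertions.

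Other genes of matrix and mesenchyme, which are no members, showed the following in PB. Of 17 other collagens 6 were tested and 0 called by edgeR (1 at an unadjusted p below 0.05), and of 30 other matrix genes 5 were tested and 0 called (1 at an unadjusted p below 0.05). Of 35 genes listed as other mesenchymal regulators 14 were tested and 4 had more insertions in tails: Gli3, Egfr, Gli2 and Fgfr2 (6 at an unadjusted p below 0.05). Whether the insertions in these 4 genes lay in mesenchymal cells was not tested. The other collagens took 0.105% in PB tails and 0.0798% in PB tumours, and the other matrix genes 0.142% and 0.0762%. Together the 35 listed regulators took 0.502% ± 0.0900 of the insertions in PB tails (SD, n = 12) and 0.304% ± 0.159 in PB tumours (SD, n = 30). In SB they took 0.272% ± 0.0849 and 0.272% ± 0.0997 (SD, n = 11 each), and 0 of the 8 tested were called (1 at an unadjusted p below 0.05).

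Genes of other cell types were counted in the same contrast. A list of 19 keratinocyte genes, of which 14 were hit in PB tails and Krt5 and Krt1 were at 0 in all groups, took 0.241% ± 0.124 of the insertions in PB tails (SD, n = 12, range 0.0883 to 0.525%) and 0.0431% ± 0.0363 in PB tumours (SD, n = 30, range 0 to 0.195%), a ratio of 5.58. The 15 B lymphocyte genes went the other way, with 0.219% ± 0.103 in PB tails (SD, n = 12, range 0.109 to 0.464%) and 0.617% ± 0.232 in PB tumours (SD, n = 30, range 0.128 to 1.06%), and Ms4a1 and Blk at 0 in all groups. In SB the keratinocyte genes took 0.0662% ± 0.0279 in tails and 0.0335% ± 0.0374 in tumours, and the B lymphocyte genes 0.0962% ± 0.0543 and 0.397% ± 0.192 (SD, n = 11 each). The members' PB ratio of 1.64 lay between those of these lists, and what the make-up of tails and tumours contributed to it was not tested. The 6 endothelial genes took 0.0349% in PB tails and 0.0318% in PB tumours, a ratio of 1.10, and 0.858 was the ratio in SB. The 6 genes of Schwann cells and melanocytes took 0.0198% and 0.00998% in PB, a ratio of 1.98, and 0.0180% and 0.00357% in SB. In PB these were 8 insertions in 2 of the 6 genes in tails and 18 insertions in 3 genes in tumours. The 7 genes of T lymphocytes and myeloid cells took 0.0223% and 0.00901% in PB, a ratio of 2.48, opposite in direction to the B lymphocyte genes. In SB they took 0.00945% and 0.0175%. The PB values came from 12 insertions in 3 of the 7 genes in tails and 14 insertions in 4 genes in tumours. Lck and Lyz2 were at 0 in all groups, so this ratio describes a few genes and not a cell type. The 12 skeletal muscle genes took 0.0208% in PB tails and 0.0151% in PB tumours, with Acta1 and Myod1 at 0 in all groups. Dmd lies on the X chromosome, which was left out.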

How the data were processed

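Transposon-genome junctions were amplified by splinkerette PCR and sequenced on a MiSeq (75 bp, paired-end). The authors deposited 385883 lines with position, strand, gene and raw read counts, not normalized, on mm10 (GRCm38); the aligner, the insertion caller and the gene models are not given in the sources used here. The lowest read count was 2. A further column of per-sample values (1 column), a normalized coverage, was not used.

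Positions were moved to the nearest TTAA or TA within 5 bp, counted once per sample, and dropped on chromosome 14 (donor) and the sex chromosomes. No line named several genes, and 50.8% were intergenic. Orientation, exons and expected insertions used RefSeq genes of GRCm38.p6. Tails and tumours were compared with edgeR 4.0.16 (quasi-likelihood, Benjamini-Hochberg over all genes with at least 10 insertions, R 4.3.3); DESeq2 1.42.0, TMM, Fisher's exact test, filters, gene bodies, name form and left-out samples were alternatives. The genic denominator and leaving out the spleen tumours were added after seeing the data. The labels give no animal, litter or batch fields beyond the sample names, so p-values measure the spread between these samples. Each SE was the absolute log2 ratio divided by the square root of the edgeR F statistic, so it need not match its p exactly. Intervals cover counting error only.

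The members, gene lists and tests were chosen with earlier results of these data known. Named are all members, with values for those called, the 10 with most insertions and those nearest the threshold, and at most 4 called genes per other list. On simulated data with 100 genes raised and 100 lowered 4-fold among 3305 (PB), edgeR found 62 and 7 with 4 false calls; among 1124 (SB), 62 and 27 with 7.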

Additional observations from a re-analysis of the deposited data

How the results depend on the processing

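The PB member share stayed higher in tails under every alternative run, from 0.175 to 0.257 percentage points of all insertions or reads, and 0.205 to 0.229 when each sample was left out in turn. As a share of genic insertions the difference was 0.447 percentage points in PB and 0.132 in SB, on a scale whose denominator is smaller by construction. The SB difference was reversed with donor and sex chromosomes kept (-0.0154) and with at least 10 reads (-0.00069), the cause of the latter not being tested, and ran from 0.0270 to 0.0571 with single samples left out. The 4 members called in PB were 2 with no minimum (more genes tested), 2 with the name form as a block and 0 with Fisher's exact test of presence, which ignores repeated insertions (2 at an unadjusted p below 0.05); with single samples left out the number was 3 to 5. Nfib and Col5a2 were called under TMM, no minimum and the name form block, whereas the cause of the loss of Sox6 and Bnc2 under the block was not tested. Col5a2 had no adjusted p with DESeq2, with at least 10 reads or with a minimum of 30 insertions, so its call was not checked there. In SB the number called was 0 under every alternative run, 0 to 0 with single samples left out, and in the interaction 0 with TMM and with a minimum of 30. No paired analysis was possible because the labels give no replicate numbers shared between tails and tumours. Counting limits all of this: 18 members in PB and 24 in SB had under 10 insertions and entered only the fits with no minimum, apart from the 4 in each system without any insertion.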
